A study of Homo sapiens with 2 samples.

Results

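Tumour necrosis factor (TNF) ligand and receptor superfamily genes were examined for C/EBPβ peaks near their transcription starts in HL-60 cells, a human leukaemia line of myeloid origin that the labels describe as myeloblast. Genes were taken by symbol, as all those beginning with TNFRSF, TNFSF or TRAF and a digit, together with TNF, LTA, LTB, LTBR, FAS, FASLG, CD27, CD40, CD40LG and CD70. The deposited list held 23 such symbols, of which 22 were protein-coding genes, out of 5133 protein-coding genes listed in all. They were paired with 31 of its 7029 peaks, through 49 transcripts and 65 of 17637 peak-transcript pairs. The study comprised 1 C/EBPβ immunoprecipitate and 1 input library prepared with no antibody, both from HL-60 cells overexpressing C/EBPβ. The labels do not state how the factor was introduced or whether the cells were 1 clone. Values for the input library and for HL-60 cells without overexpression were not analysed here. With 1 library and no replicate, nothing could be tested between samples, and a list of peaks cannot be checked against expression markers of the cell line.

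Ligands of this superfamily are mostly trimeric membrane proteins that can be shed, and their receptors signal by clustering. Receptors with a death domain recruit adaptors and caspases that kill the cell, whereas most others bind TRAF proteins, adaptors that lead to NF-κB and MAP kinase activation, and decoy receptors bind ligand with little or no signal. In myeloid cells TNF is a principal inflammatory cytokine, and C/EBPβ is a transcription factor active in myeloid maturation and inflammatory gene expression.

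Of the 53 protein-coding genes in the annotation that the symbols take, 22 had at least 1 listed peak (41.5%, exact 95% binomial interval 28.1 to 55.9), against 26.5% of all 19392 protein-coding genes. The superfamily share stood above that background, and its interval began just above it. That separation was lost in 3 of 4 alternative settings: with peaks counted at their nearest start alone (35.8%, interval 23.1 to 50.2), with peaks within 1000 bases (32.1%, interval 19.9 to 46.3) and with peaks above the median width (24.5%, interval 13.8 to 38.3), the interval contained the share of all genes, at 23.4%, 20.9% and 15.4%. The interval covers counting error over genes only. Receptor genes were listed for 11 of 25 (44.0%, interval 24.4 to 65.1), ligand genes for 6 of 18 (33.3%, interval 13.3 to 59.0) and TRAF1 to TRAF7 for 4 of 7 (57.1%, interval 18.4 to 90.1). Each of these 3 intervals contained the background share, so none of the roles was distinguishable from it at these numbers. The remaining 3 genes, TRAF3IP1, TRAF3IP2 and TRAF3IP3, enter by symbol only and encode proteins that bind TRAF3 or other signalling partners, and TRAF3IP3 alone among them was listed. The median number of curated RefSeq transcripts was 2 for superfamily genes and 2 for all protein-coding genes.

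**Figure D1:**
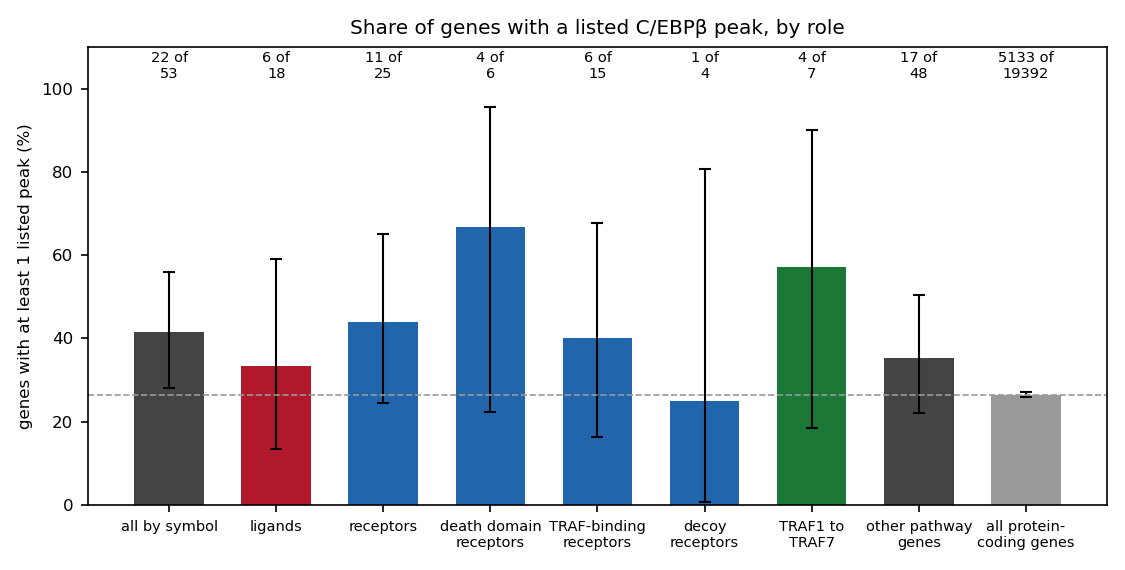
Bars give the percentage of genes with at least 1 listed peak, error bars the exact 95% binomial interval, and the dashed line the share of all protein-coding genes (26.5%). Of receptor genes taken by symbol, 4 of 6 death domain, 6 of 15 TRAF-binding and 1 of 4 decoy genes were listed. Each of the 3 intervals crosses the dashed line.

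A peak with its middle within 100 bases of a start was listed for 9 of 53 superfamily genes (17.0%), against 6.69% of all protein-coding genes. Among listed genes alone the counts were 9 of 22 superfamily genes and 1297 of all 5133. No interval was computed for these shares, and whether they differ was not tested. The 9 superfamily genes were TNFSF13B, TNF and TNFSF4 among ligands, LTBR, FAS, TNFRSF1A and 2 TRAIL receptor genes among receptors, and TRAF3IP3. At least 2 peaks were listed for 7 of 53 superfamily genes (13.2%), against 7.98% of all protein-coding genes. Among listed genes alone the counts were 7 of 22 and 1548 of 5133, again without an interval. The 7 superfamily genes were LTB, TNFSF14, TNFSF13B, FAS, TRAF4 and TRAF7 with 2 each and TRAF3IP3 with 3. The nearest peak was more than 1000 bases away at 5 listed genes. The median nearest distance was 398 bases over the 22 superfamily genes, with a range of 3 to 2710, against 265 bases over all 5133 listed genes.

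**Figure D2:**
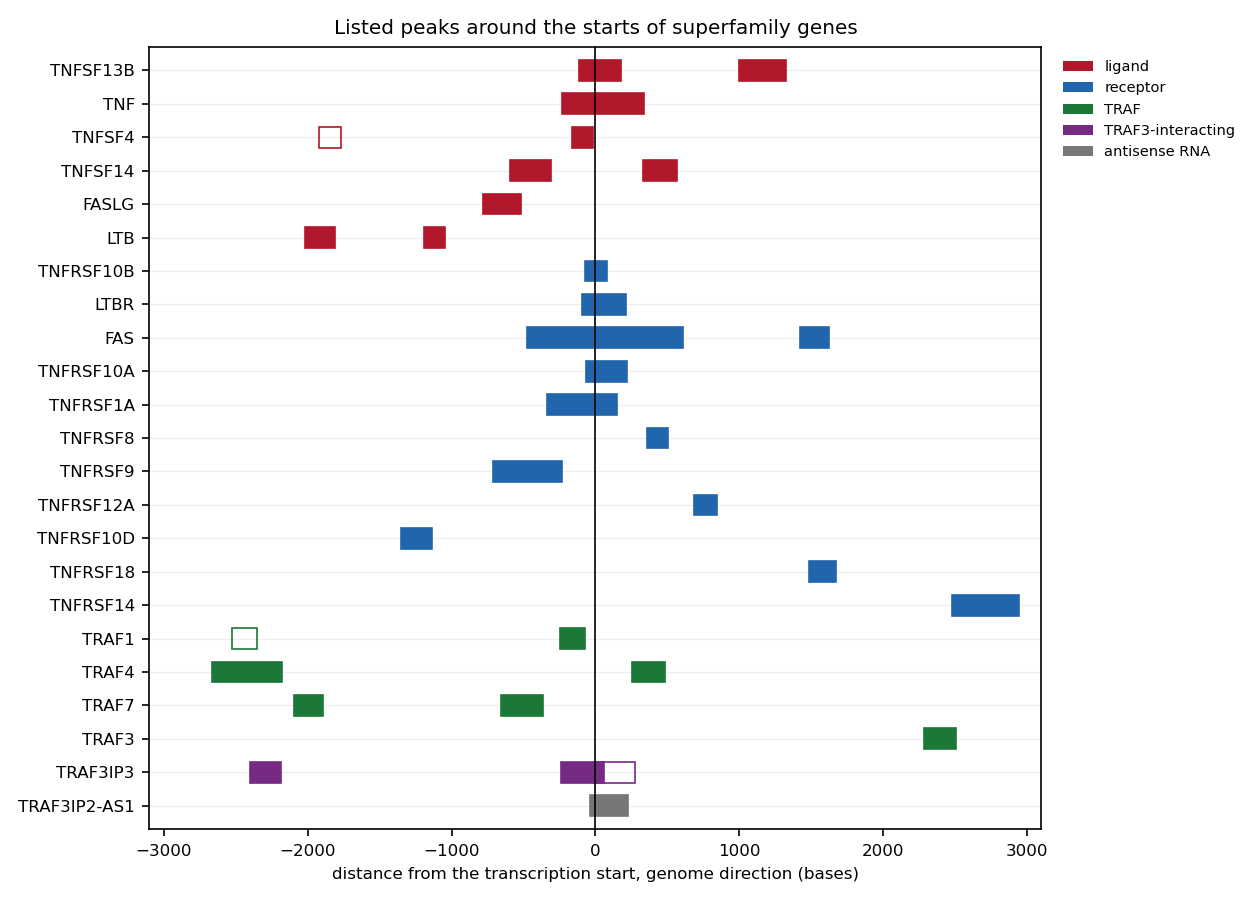
Each box is a listed peak drawn to scale at its distance from the transcription start in bases, in genome direction, 1 row per gene. Open boxes mark peaks drawn from another start of the same gene than the one nearest to a peak. Peaks of TNFSF13B, TNF, LTBR, FAS and TNFRSF1A overlie the start, and those of LTB, TNFRSF14 and TRAF3 lie away from it.

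The ligand gene with the nearest peak was TNFSF13B, which encodes BAFF, a survival factor for B cells that myeloid cells secrete. Its first peak, at chr13:108921865-108922154 (hg19, as are all peak positions here), was 289 bases wide with its middle 33 bases from the start. A second peak of 330 bases lay at chr13:108922972-108923302, 1161 bases from the same start. RefSeq's promoter table for GRCh38, matched by symbol, places the gene on the plus strand, so both middles fall downstream of the start. The peak at TNF, the founding cytokine of the family, was 572 bases wide at chr6:31543108-31543680. It reached from −235 to 337 bases around the start, and 4.08% of all listed peaks were wider. At TNFSF4, which encodes OX40 ligand, a costimulatory ligand for T cells, the peak at chr1:173174531-173174681 was 150 bases wide and lay 91 bases from the nearer of 2 annotated starts and 1846 bases from the other. TNFSF14, which encodes LIGHT, a ligand of the lymphotoxin β receptor, had a peak on either side of its start, with middles 448 bases upstream (chr19:6670930-6671164) and 453 bases downstream (chr19:6670004-6670289).

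The remaining 2 listed ligand genes were FASLG and LTB. FASLG, which encodes the ligand of the death receptor FAS, had 1 peak 647 bases upstream, at chr1:172627369-172627631. LTB, which encodes the membrane subunit of lymphotoxin, had peaks 1115 and 1915 bases downstream of its start, at chr6:31549014-31549160 and chr6:31548181-31548393. The nearer of them was 146 bases wide, the smallest width in the whole list, which other peaks shared, and 92% of listed peaks were wider. The 12 ligand genes without a listed peak were LTA, TNFSF8, TNFSF9, TNFSF10, TNFSF11, TNFSF12, TNFSF13, TNFSF15, TNFSF18, CD70, CD40LG and the read-through gene TNFSF12-TNFSF13. TNFSF10, which encodes TRAIL, was among them, and genes for 3 of its receptors were listed. Of 6 ligands that costimulate T cells (TNFSF4, TNFSF8, TNFSF9, TNFSF18, CD70 and CD40LG), TNFSF4 was the single one listed (16.7%, interval 0.421 to 64.1, which contains the 26.5% of all genes).

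The widest superfamily peak was at FAS, the death receptor for FAS ligand. It spanned 1086 bases at chr10:90749811-90750897, from −476 to 610 bases around the start, and ranked 22 by width among the 7029 peaks. A narrower peak of 203 bases followed 1521 bases downstream, at chr10:90751707-90751910. At TNFRSF1A, which encodes the main TNF receptor with a death domain, the peak at chr12:6450950-6451431 was 481 bases wide with its middle 93 bases downstream of the start. LTBR, the lymphotoxin β receptor gene, had a peak of 306 bases at chr12:6493108-6493414, with its middle 63 bases downstream. The FAS, TNFRSF1A and LTBR peaks all covered the start itself, as did those of TNF and TNFSF13B.

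The promoters of these 5 genes are shown as examples in which a listed peak overlay the start. Peaks also overlay a start of TRAF3IP3, TNFRSF10A and TNFRSF10B, whose promoters are not shown. Each is 1 window of RefSeq's GRCh38 table, from 250 bases before to 50 after a start, written in gene direction, with capitals marking any match to the C/EBP motif TTGCNNAA on either strand. The windows are chr13:108269379-108269678 for TNFSF13B, chr10:88990548-88990847 for FAS, chr6:31575315-31575614 for TNF and chr12:6383912-6384211 for LTBR, all on the plus strand, and chr12:6342027-6342326 on the minus strand for TNFRSF1A. TNFSF13B was shown for a peak within 50 bases of a start, which TNFRSF10B also had, and the other 4 were added after their values were seen.
TNFSF13B: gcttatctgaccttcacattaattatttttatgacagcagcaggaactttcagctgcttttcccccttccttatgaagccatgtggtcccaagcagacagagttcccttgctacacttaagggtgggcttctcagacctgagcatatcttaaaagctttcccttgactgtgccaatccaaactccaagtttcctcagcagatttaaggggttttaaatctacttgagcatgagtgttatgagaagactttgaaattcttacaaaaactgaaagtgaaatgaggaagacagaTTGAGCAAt
FAS: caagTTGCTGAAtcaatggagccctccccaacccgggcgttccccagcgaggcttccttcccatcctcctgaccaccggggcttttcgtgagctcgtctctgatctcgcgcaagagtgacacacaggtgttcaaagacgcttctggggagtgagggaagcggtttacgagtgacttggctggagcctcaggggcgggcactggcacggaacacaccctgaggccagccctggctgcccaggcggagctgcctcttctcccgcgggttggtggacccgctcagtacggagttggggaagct
TNF: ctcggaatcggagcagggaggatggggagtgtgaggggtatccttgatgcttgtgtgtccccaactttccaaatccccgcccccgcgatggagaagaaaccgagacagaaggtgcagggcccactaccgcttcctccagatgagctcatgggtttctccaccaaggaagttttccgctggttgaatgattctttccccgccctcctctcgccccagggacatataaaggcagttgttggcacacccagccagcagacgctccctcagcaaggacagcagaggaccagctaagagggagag
LTBR: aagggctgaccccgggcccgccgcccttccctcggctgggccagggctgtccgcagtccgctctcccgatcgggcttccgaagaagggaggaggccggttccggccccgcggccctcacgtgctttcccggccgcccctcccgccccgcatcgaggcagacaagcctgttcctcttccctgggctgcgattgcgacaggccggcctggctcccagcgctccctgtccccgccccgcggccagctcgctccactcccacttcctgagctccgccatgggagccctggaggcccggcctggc
TNFRSF1A: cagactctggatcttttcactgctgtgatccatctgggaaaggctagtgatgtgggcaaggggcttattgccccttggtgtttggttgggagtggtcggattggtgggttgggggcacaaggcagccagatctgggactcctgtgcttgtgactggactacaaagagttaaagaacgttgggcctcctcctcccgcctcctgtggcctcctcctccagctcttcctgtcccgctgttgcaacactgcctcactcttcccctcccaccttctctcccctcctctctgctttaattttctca

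Counting from the first transcribed base as position 1, with negative positions before it, the TNFSF13B match (TTGAGCAA) began at position 42 and the FAS match (TTGCTGAA) at −246. TNF, LTBR and TNFRSF1A held no TTGCNNAA in these windows, which says nothing of other sites. Around the deposited starts, the TNFSF13B peak ran from −111 to 178 and held 161 of the 300 bases from 250 before to 50 after the start. The FAS peak held all of that span, the TNF peak 285, the TNFRSF1A peak 198 and the LTBR peak 140. The table has 2 windows for TNFSF13B and 3 for FAS, of which the first is shown, and their starts were not matched to the deposited starts across builds. GC content of the 5 windows ranged from 41.0% at TNFSF13B to 74.3% at LTBR.

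Promoter windows in the table were found for 18 listed superfamily genes, 27 windows in all. TTGCNNAA occurred in 9 of these windows (33.3%) from 6 genes, FAS, TNFRSF14, TNFSF13B, TNFSF14, TNFSF4 and TRAF3IP3, against 10.5% of all 35116 windows. By gene this was 6 of 18, against 12.7% of the 27305 genes in the table, with or without a listed peak. These shares carry no interval, and whether they differ was not tested. The peaks of TNFRSF14 and TNFSF14 held 0 bases of the matching span around their deposited starts. A peak of each of FAS, TNFSF13B, TNFSF4 and TRAF3IP3 held part or all of that span. Overlapping windows of TNFSF13B and of TNFSF14 each carry a single site that was counted more than once. The full palindrome TTGCGCAA was in none of the 27 windows and in 0.151% of all windows, and the composite C/EBP and ATF motif TGATGCAA in none and in 0.866%. TTGCGCAA is itself a case of TTGCNNAA, and all 3 motifs were searched on both strands. A match in these letters is a description and not a bound site.

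Of the 6 receptor genes with a death domain that the symbols take, 4 were listed (66.7%, interval 22.3 to 95.7). The interval contained the 26.5% of all protein-coding genes. All 4 had a peak within 100 bases of the start, which makes 4 of 6 (66.7%), against 6.69% of all protein-coding genes. Among all 5133 listed genes 1297 had such a peak, and no interval was computed for this share. Beside FAS and TNFRSF1A the 4 genes were TNFRSF10B and TNFRSF10A, which encode the 2 TRAIL receptors that signal death. TNFRSF10B had a 151-base peak on chromosome 8 at 22926628 to 22926779, with its middle 3 bases from the start, the nearest of any superfamily gene. TNFRSF10A had one of 287 bases at 23082613 to 23082900, 76 bases from the start. TNFRSF25 and TNFRSF21, the other death domain genes that the symbols take, had none listed. Related receptor genes whose symbols fall outside the rule, among them EDAR and NGFR with no listed peak, were not counted in this class.

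Of 15 receptor genes whose products bind TRAF proteins without a death domain, 6 were listed (40.0%, interval 16.3 to 67.7, which contains the 26.5% of all genes). LTBR alone had a peak within 100 bases, 1 of 15 (6.67%), near the 6.69% of all genes. TNFRSF8, which encodes CD30, had a 146-base peak 429 bases downstream of its start. TNFRSF9, which encodes the costimulatory receptor CD137, had one of 479 bases 472 bases downstream, at chr1:8002514-8002993. The peak of TNFRSF12A, the receptor gene for TWEAK, was 160 bases wide and 763 bases from the start. TNFRSF18, which encodes the costimulatory receptor GITR, had a peak 1578 bases upstream, and TNFRSF14, which encodes HVEM, the receptor of LIGHT, had one of 465 bases 2710 bases downstream. The 9 without a listed peak were TNFRSF1B, the second TNF receptor gene, TNFRSF4, TNFRSF11A, TNFRSF13B, TNFRSF13C, TNFRSF17, TNFRSF19, CD27 and CD40. Among these are all 3 receptor genes for BAFF (TNFRSF13B, TNFRSF13C and TNFRSF17), which B lineage cells use. Of 4 decoy receptor genes, TNFRSF10D was listed (25.0%, interval 0.631 to 80.6, against 26.5% of all genes), with a 214-base peak 1245 bases from its start, and TNFRSF10C, TNFRSF11B and TNFRSF6B were not.

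**Figure D3:**
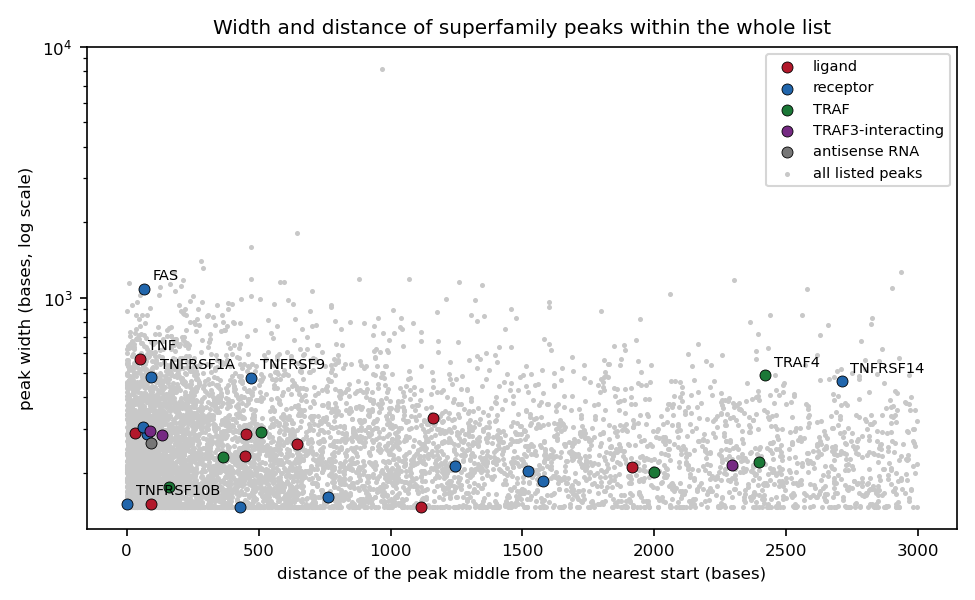
Each point is a listed peak, with its distance in bases from the nearest start (for coloured points, of the superfamily gene) and its width in bases on a log scale. The first FAS peak stands among the widest of the list at 1086 bases, and TNFRSF10B lies 3 bases from its start with a width of 151 bases.

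The median width of superfamily peaks was 262 bases (order-statistic 95% interval 212 to 292, 31 peaks), against 229 bases over 7029 peaks, which lies inside that interval. Their median distance to a superfamily start was 453 bases, against 445 bases to the nearest start over all peaks. Within 1000 bases lay 20 of the 31 superfamily peaks (64.5%), against 70.4% of all peaks, and within 100 bases lay 10 (32.3%), against 19.5%. For the 18 listed genes whose strand the promoter table gives, the nearest peak middle was downstream of the start at 13 and upstream at 5, against 49.7% downstream over 4243 listed genes. No interval was computed for these directions or for the shares within 1000 and 100 bases, and whether they differ was not tested.

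None of the 7 TRAF genes had a peak within 100 bases of a start, against 6.69% of all protein-coding genes. With 7 genes, a count of none cannot be told from that share. Among listed genes alone the counts were 0 of 4 TRAF genes and 1297 of all 5133. TRAF1, an inducible member that modulates the others, had 1 peak of 175 bases at chr9:123688925-123689100, which lay 161 bases downstream of one start and 2439 bases downstream of another. TRAF4 had 2 peaks, 367 bases downstream (chr17:27071274-27071505) and 2421 bases upstream (chr17:27068356-27068847), and the far one was the wider at 491 against 231 bases. TRAF7 had 2 as well, 511 and 1997 bases upstream, at chr16:2205141-2205433 and chr16:2203700-2203902. TRAF3, which restrains the kinase MAP3K14 and so the alternative NF-κB pathway, had its peak 2395 bases downstream, at chr14:103246099-103246321. TRAF2, the adaptor of TNF receptors, TRAF5, and TRAF6, the adaptor of Toll-like and interleukin-1 receptors, had none listed. TRAF3IP3, whose product binds TRAF3, had peaks at 2 starts, 1 of them 135 bases downstream of the start at 209929376 on chromosome 1. The other 2 lay 89 and 2295 bases upstream of the start at 209941832.

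Ligand and receptor genes were then set side by side over a chosen list of 31 known pairs of 17 ligands and 23 receptors. The list is not exhaustive, and the counts hold for these pairs only. LTA, for example, was paired in it with TNFRSF1A and TNFRSF1B alone. Both genes were listed in 5 pairs: TNF with TNFRSF1A, FASLG with FAS, LTB with LTBR, and TNFSF14 with each of LTBR and TNFRSF14. The ligand gene alone was listed in 7 pairs, the receptor gene alone in 8 and neither in 11. Of the 6 listed ligands, 4 had a listed receptor, and the exceptions were TNFSF13B and TNFSF4. Of the 11 ligands without a peak, 6 had at least 1 listed receptor. Listed in all were 6 of these 17 ligands and 11 of these 23 receptors, against 26.5% of all protein-coding genes. Pairs share members, so they are not independent of each other. Whether more pairs had both genes listed than these shares alone would give was not tested.

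**Figure D4:**
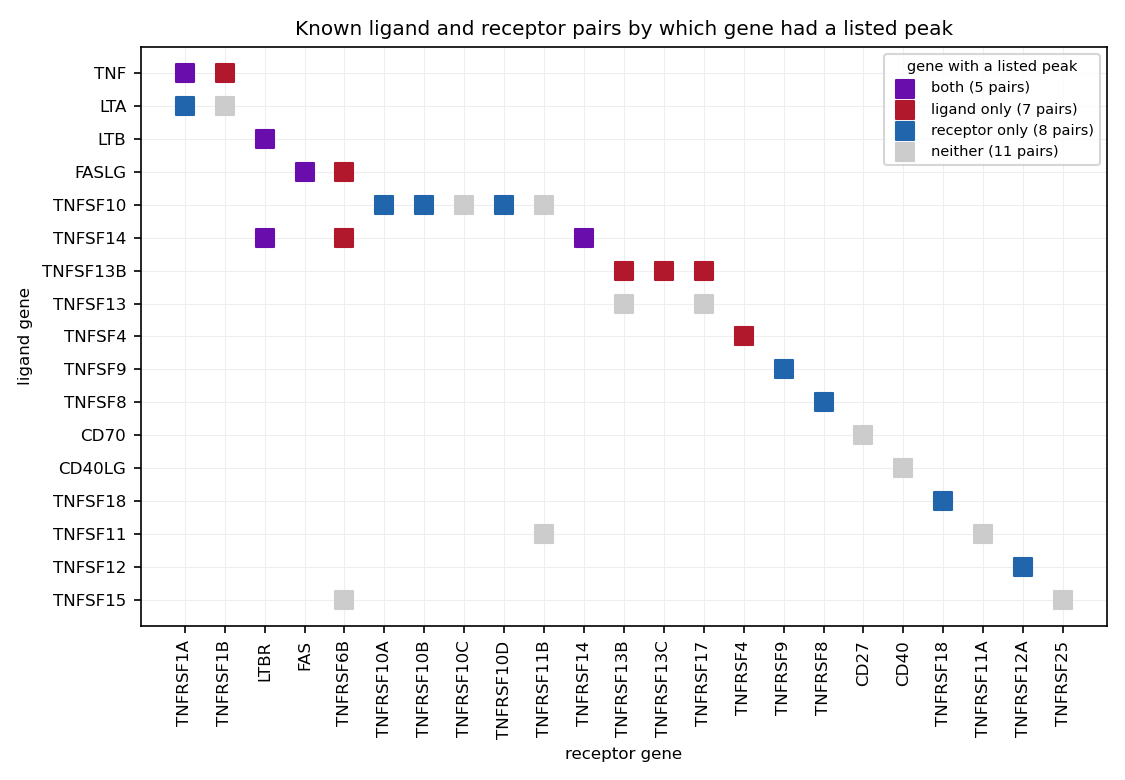
Each square is a known pair of a ligand gene (rows) and a receptor gene (columns), coloured by which of them had a listed peak. The 5 pairs with both genes listed sit in the TNF, LTB, FASLG and TNFSF14 rows, and the TNFSF13B row shows a listed ligand with 3 unlisted receptors.

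Several superfamily genes lie next to each other, and in none of these groups was every gene listed. In the TNF and lymphotoxin group on chromosome 6, the TNF peak and the 2 LTB peaks lay within 6052 bases, and LTA, their neighbour, had none within the 3000-base window. The LTB peaks began 4501 bases beyond the end of the TNF peak and were 621 bases apart. The authors' running peak numbers for these 3 are consecutive (20906, 20907 and 20908). In the TRAIL receptor group on chromosome 8, 3 of 4 genes were listed over 156272 bases, and TNFRSF10C, between TNFRSF10B and TNFRSF10D, was not. TNFRSF1A and LTBR on chromosome 12, separated by the sodium channel gene SCNN1A, had peaks 41677 bases apart, and the nearby CD27 had none. TNFSF14 was listed without its neighbours TNFSF9 and CD70, FASLG and TNFSF4 without TNFSF18, TNFRSF18 without TNFRSF4 and TNFRSF8 without TNFRSF1B. Neither gene was listed in the TNFSF15 and TNFSF8 group or the TNFSF12 and TNFSF13 group.

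**Figure D5:**
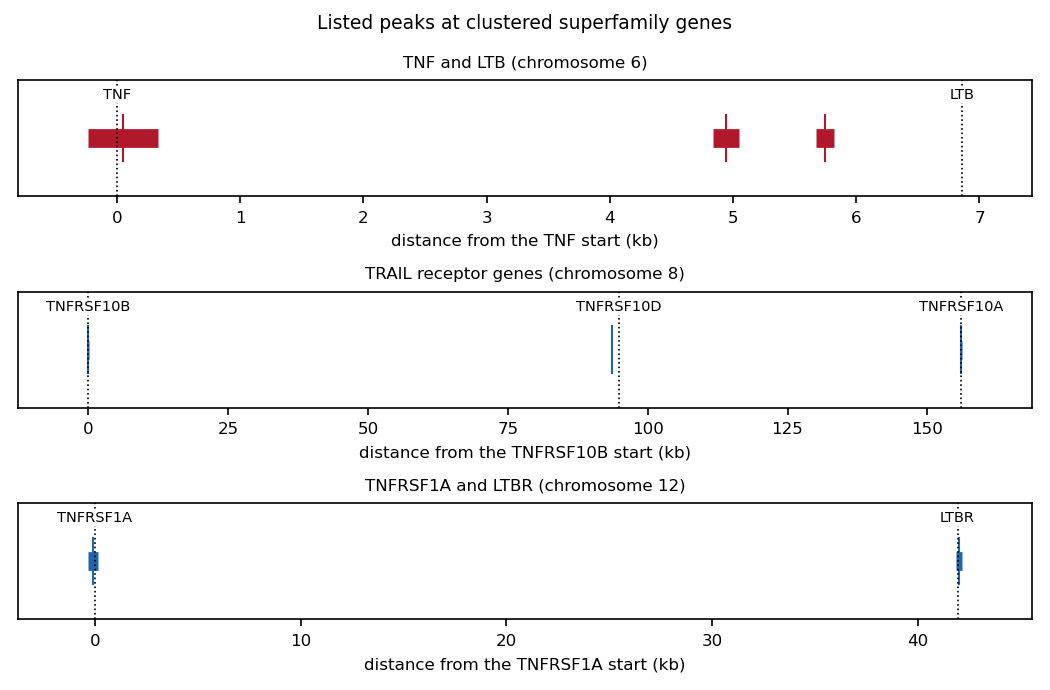
Bars are listed peaks drawn to scale, thin vertical lines their middles and dotted lines the starts of listed genes, in kb from the first named start, for 3 gene groups. The TNF peak covers its start, whereas the 2 LTB peaks lie between the TNF and LTB starts.

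A listed peak does not name a single gene, and 9 of the 31 superfamily peaks were also paired with a gene outside the family. For 5 of them the other start was nearer. The TNFRSF10A peak was 23 bases from the start of the noncoding TNFRSF10A-DT, and the TNFRSF14 peak was 2063 bases from that of TNFRSF14-AS1. Both TRAF7 peaks were nearer to the small nucleolar RNA gene SNORD60, at 181 and 1305 bases. The second FAS peak was 661 bases from a start of ACTA2, the smooth muscle actin gene, whose start lay 793 bases from the middle of the wide FAS peak. The TNFRSF10B peak was also paired with TNFRSF10B-AS1, and the TNFRSF12A peak with CLDN6 and THOC6. The 23rd symbol, the antisense RNA gene TRAF3IP2-AS1, had 1 peak 94 bases from its start, which lay 150 bases from a start of REV3L, a DNA polymerase subunit gene.

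A list of 48 other pathway genes was also examined, made up of 41 genes acting downstream of the receptors, the protease gene ADAM17 and 6 genes of related receptors, a ligand and an adaptor. Of the 48, 17 were listed (35.4%, interval 22.2 to 50.5), and of the 41 downstream genes 15 (36.6%, interval 22.1 to 53.1), against 26.5% of all protein-coding genes. Both intervals contained that share, as did those of the 4 downstream groups. In the death signalling group 4 of 9 were listed. CFLAR, which encodes the caspase-8 inhibitor cFLIP, had 3 peaks with the nearest 16 bases upstream, and CASP8 had 1 peak 66 bases downstream of a start. MLKL, the executioner of necroptosis, had 1 peak 274 bases upstream, and FADD, the death domain adaptor, had 3 with the nearest at 425 bases. TRADD, RIPK1, RIPK3, CASP10 and CRADD were not listed. Of 13 genes of the ubiquitin machinery and its regulators 5 were listed, with RBCK1 at 192 bases, TNFAIP3 (A20, a feedback inhibitor) with 2 peaks and the nearest at 306, and TANK at 386. SHARPIN and BIRC3 were the others, and BIRC2, XIAP, RNF31, CYLD, OTULIN, TNIP1, TNIP2 and TNIP3 were not listed.

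Among 11 kinases and partners, MAP3K5, IKBKG and IKBKE had 2 peaks each, with the nearest at 38, 1069 and 2072 bases. IKBKG has a near-identical pseudogene, so reads there can be shared between the copies. MAP3K7, TAB1, TAB2, TAB3, MAP3K14, CHUK, IKBKB and TBK1 had none listed. Of 8 NF-κB and inhibitor genes, NFKBIB had a peak at 37 bases, NFKB1 at 61 and NFKBIA, which encodes the inhibitor IκBα, at 582 bases with a width of 1153 bases. NFKB2, REL, RELA, RELB and NFKBIE were not listed. ADAM17, the protease that sheds TNF, had a 208-base peak 49 bases from its start. Of the 6 related genes whose symbols fall outside the rule, RELT was listed, at 502 bases, and EDA, EDAR, EDA2R, EDARADD and NGFR were not.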

How the data were processed

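Chromatin immunoprecipitation sequencing was carried out in C/EBPβ-overexpressing HL-60 cells. Per the submitters' processing notes, BWA 0.7.10, SAMtools and MACS2 2.1.1 were used with hg19, with no role or setting attached. The labels state neither the peak threshold nor whether the input was used in calling, and read depth behind each peak is unknown.

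The authors deposited a list of peaks paired with RefSeq transcripts whose start lies within 3000 bases of the peak middle. The deposited distance runs from start to middle in genome direction. Each deposited score could be computed from the distance alone (largest difference 5e-13) and was not used, so no peak height or enrichment exists here. The base from which peak starts count is not stated in the file.

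A GRCh38 gene table from RefSeq supplied the gene of each transcript (12331 of 12532 by accession, the rest by symbol where possible, and all 49 superfamily transcripts by accession), used for names, gene order and the 19392 protein-coding genes with a curated transcript on chromosomes 1 to 22 and X. Strand came from RefSeq's GRCh38 promoter table. A gene counted as listed with at least 1 paired peak. Intervals are exact (Clopper-Pearson, 95%, scipy 1.17.1) and cover counting error over genes only. Counting was tested on simulated data.

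The members, roles, pathway list and motifs were chosen with earlier results of these data known, so no test of the family was made. All listed members were named, and 3 genes with the nearest peaks were given per pathway group. Peak positions cover gene clusters and members with at least 2 peaks, a peak within 100 bases or the widest peak of their role. The exceptions, named without peak positions, were TRAF3IP3, TRAF3IP2-AS1, TNFRSF8, TNFRSF10D and TNFRSF18. Other values and positions were added after they were seen. Alternatives were nearest start only, peaks within 1000 bases, peaks above the median width (229 bases), and leaving out read-through and TRAF3-interacting genes.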

Additional observations from a re-analysis of the deposited data

How the results depend on the processing

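With 1 library per kind there was no replicate to leave out. No paired analysis was possible because the result comes from no test between groups. With peaks above the median width alone, the superfamily share was 24.5% (13 of 53) and the receptor share 24.0% (6 of 25), against 15.4% of all protein-coding genes, since that setting keeps fewer peaks by construction. The 9 genes lost were LTB, TNFRSF10B, TNFRSF10D, TNFRSF12A, TNFRSF18, TNFRSF8, TNFSF4, TRAF1 and TRAF3. Giving each peak only to its nearest start left 19 of 53 (35.8%, against 23.4% of all genes), without TNFRSF10A, TNFRSF14 and TRAF7. Peaks within 1000 bases left 17 of 53 (32.1%, against 20.9%), and leaving out the read-through and TRAF3-interacting genes gave 21 of 49 (42.9%). The superfamily share was above that of all genes in each of these settings, but its interval contained the share of all genes in the nearest-start (23.1 to 50.2), 1000-base (19.9 to 46.3) and wider-peak (13.8 to 38.3) settings. Without the read-through and TRAF3-interacting genes it did not (28.8 to 57.8). The ligand, TRAF and pathway shares and the median distance and width stayed within their intervals under every alternative run on them. The depth of the libraries is unknown, so a gene without a listed peak is not shown to be unbound.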

Other observations

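Gene families related to TNF by name were looked at after the values above had been seen. Of 9 TNFAIP genes, first found as TNF-induced transcripts or named for likeness to one, 4 were listed (44.4%, exact 95% binomial interval 13.7 to 78.8, which contains the 26.5% of all protein-coding genes). TNFAIP6, which encodes a hyaluronan-binding protein of inflammation, had a 227-base peak 75 bases from its start on chromosome 2. TNFAIP8L2 had 2 peaks with the nearest at 203 bases, which its read-through partner TNFAIP8L2-SCNM1 shares, and TNFAIP3 is described above. TNFAIP1, TNFAIP2, TNFAIP8, TNFAIP8L1 and TNFAIP8L3 were not listed. None of 11 C1QTNF genes, whose products carry a C1q domain that resembles the fold of TNF ligands, was listed, which allows a share of up to 28.5% and so does not differ detectably from the 26.5% of all protein-coding genes.

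The authors' peak numbers also run through positions with no listed peak. Between the TNFRSF10B and TNFRSF10D peaks 2 numbers are unlisted, and 2 more between those of TNFRSF10D and TNFRSF10A. Between FASLG and TNFSF4 10 numbers fall, over 546900 bases. What these numbers stand for is not stated in the file.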
